A study of Mus musculus with 6 samples.

Results

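The genes described here are 43 genes with which fibroblasts build, crosslink and pull on the matrix around them. They were given as a list of symbols: 6 fibrillar collagens, 5 other collagens, 4 enzymes and helpers of collagen maturation, 3 small proteoglycans, 7 matrix glycoproteins, 2 CCN proteins, 4 members of the metalloprotease system, 5 contractile proteins, 4 surface, filament and calcium-binding markers and 3 transcription factors. Of the 43, 41 matched a probe set that carries that symbol alone in the array's annotation, and all 41 passed the filter on low signal, among 12740 genes tested. Loxl2 matched only 2 probe sets that it shares with other symbols, and Fbn1 is named on no probe set here, so neither has a value. For each gene the brightest probe set, by mean signal, was used. Where 3 values are given for a group they stand in the order of arrays 1, 2 and 3.

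The arrays compare R1 cells, a mouse embryonic stem cell line, carrying a lentiviral short hairpin RNA (shRNA) against luciferase with R1 cells carrying shRNA1 against KIAA1718, the protein of Kdm7a. Both groups were infected with lentivirus and sorted for GFP, and each has 3 arrays numbered 1 to 3. Each group carries a single hairpin, and the labels name no separate infection or culture behind a replicate. P-values therefore reflect the spread among these arrays alone, and that spread may be technical. The labels do not say whether feeder cells were present. The target's own signal, on the brightest of its 5 probe sets, gave no check of the labels. On that probe set Kdm7a read 38.5, 37.0 and 39.2 with luciferase and 42.2, 23.0 and 30.2 with KIAA1718 shRNA. Its log2 difference was -0.20 (95% interval -0.54 to 0.13, limma adjusted p = 0.533, and 0.457 with the block described below). The labelled cell type was seen in its markers, since Pou5f1, the gene of the pluripotency factor Oct4, read between 943 and 1242 on the 6 arrays, and the lowest signal of any of 13 stem cell markers was 181.

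Fibrillar collagens assemble as triple helices that lysyl oxidases crosslink into tensile fibres, and collagens, fibronectin, proteoglycans and glycoproteins together form the stroma of connective tissue. Fibroblasts and myofibroblasts hold this matrix under tension with smooth muscle actin, transgelin, caldesmon and tropomyosin, whose genes are classic targets of serum response factor, and CCN1 and CCN2 are matricellular proteins known as targets of the coactivators YAP and TAZ. Mouse embryonic fibroblasts express these genes strongly and are often used as a supporting layer for mouse embryonic stem cells.

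Promoters of 5 members are shown to cover 4 of the roles described below: Col1a2 for the collagens, Timp1 for the inhibitors, Acta2 and Myl9 for the contractile genes and Ccn1 for the CCN genes. Each is the 250 bases before the RefSeq transcription start in GRCm38.p6, written 5′ to 3′ on the gene's strand. Capitals mark matches, on either strand, to the TEAD core GGAATG, to TATAAA, to CCAAT and to a strict CArG box of serum response factor. The strict box is CCWWWWWWGG, where W is A or T. No match in these 5 windows overlaps another.
Col1a2 (chr6:4505368-4505617, + strand): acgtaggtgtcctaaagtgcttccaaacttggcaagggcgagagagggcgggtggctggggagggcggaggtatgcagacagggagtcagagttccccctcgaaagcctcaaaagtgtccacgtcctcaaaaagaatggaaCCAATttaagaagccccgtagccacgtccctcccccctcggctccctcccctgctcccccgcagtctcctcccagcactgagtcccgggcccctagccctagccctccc
Timp1 (chrX:20869916-20870165, + strand): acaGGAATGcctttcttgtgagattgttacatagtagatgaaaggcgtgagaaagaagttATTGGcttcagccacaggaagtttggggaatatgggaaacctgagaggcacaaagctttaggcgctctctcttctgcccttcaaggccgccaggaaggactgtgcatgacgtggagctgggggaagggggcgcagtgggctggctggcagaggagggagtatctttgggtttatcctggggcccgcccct
Acta2 (chr19:34255374-34255623, - strand): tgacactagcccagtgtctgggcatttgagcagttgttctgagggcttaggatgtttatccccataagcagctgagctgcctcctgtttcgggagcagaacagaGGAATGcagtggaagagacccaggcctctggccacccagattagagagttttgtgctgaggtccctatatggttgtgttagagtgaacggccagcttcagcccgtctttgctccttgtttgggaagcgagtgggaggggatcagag
Myl9 (chr2:156775214-156775463, + strand): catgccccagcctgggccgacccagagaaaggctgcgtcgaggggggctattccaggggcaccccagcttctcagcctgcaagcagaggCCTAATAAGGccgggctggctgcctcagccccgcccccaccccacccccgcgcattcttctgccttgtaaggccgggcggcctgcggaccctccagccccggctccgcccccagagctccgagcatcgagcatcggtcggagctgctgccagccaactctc
Ccn1 (chr3:145649986-145650235, - strand): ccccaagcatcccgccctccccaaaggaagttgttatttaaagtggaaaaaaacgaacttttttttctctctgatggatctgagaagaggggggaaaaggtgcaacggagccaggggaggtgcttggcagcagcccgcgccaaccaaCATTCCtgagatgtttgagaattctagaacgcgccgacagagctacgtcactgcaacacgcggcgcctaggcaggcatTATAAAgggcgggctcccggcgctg
Promoter windows were found for 28 of the 43 genes, 32 windows in all. A strict CArG box was found in 1 of the 32 (3.12%), that of Myl9, against 1.47% of 32851 windows of the same length. The printed Acta2 window holds ccctatatgg and ccttgtttgg, each 1 base off the strict pattern and so left in lower case. Such near matches were not counted. GGAATG was in 7 (21.9%, against 12.6% of all windows), TATAAA in 10 (31.2%, against 12.4%) and CCAAT in 9 (28.1%, against 33.8%). A match describes the letters in the window and not a bound site.

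Signals below are the deposited linear signals after quantile normalization between arrays, which gives the 6 arrays 1 distribution. Levels of different genes are not compared, since probe sets respond differently. Differences are on the scale of log2(signal + 16), which understates the change of dim genes, and are KIAA1718 minus luciferase. Tests are limma's, two-sided, adjusted by Benjamini-Hochberg over all 27022 probe sets kept, with a threshold of 0.05. Deposited median signals ran from 9.58 to 13.3 over the arrays, and the ratio of the 3′ to the 5′ Gapdh control probe set, a sign of RNA integrity, from 0.842 to 0.931. The same ratio for the beta-actin control probe sets ran from 1.31 to 1.53.

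In most members replicate number accounted for more of the variation than the hairpin. The exceptions were Col1a1, Loxl1, Pcolce, Dcn, Fbln2, Postn, Thbs2, Timp2, Thy1 and Twist2. In 35 of 41 members (85.4%) array 1 was the lowest of the 3 in both groups, which held for 11.8% of all genes tested; in no member was array 1 the highest in both, against 13.5% of all genes. Relative to array 1, the median member was 0.78 higher (log2) on luciferase array 2 and 0.71 higher on array 3, and 0.40 and 0.43 higher on KIAA1718 arrays 2 and 3, while for all genes these medians lay between -0.03 and 0.01. In the layout of 2 groups by 3 numbers, replicate number took a median of 63.6% of a member's sum of squares and the hairpin 26.8%, against 31.0% and 27.8% over all genes. The number has 2 degrees of freedom and the hairpin 1, so these 2 shares are not on an equal footing. Replicate number took over 50% in 29 members (70.7%), against 30.3% of all genes. In bulk RNA a smaller share of cells of one type and less RNA per cell cannot be told apart.

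**Figure D1:**
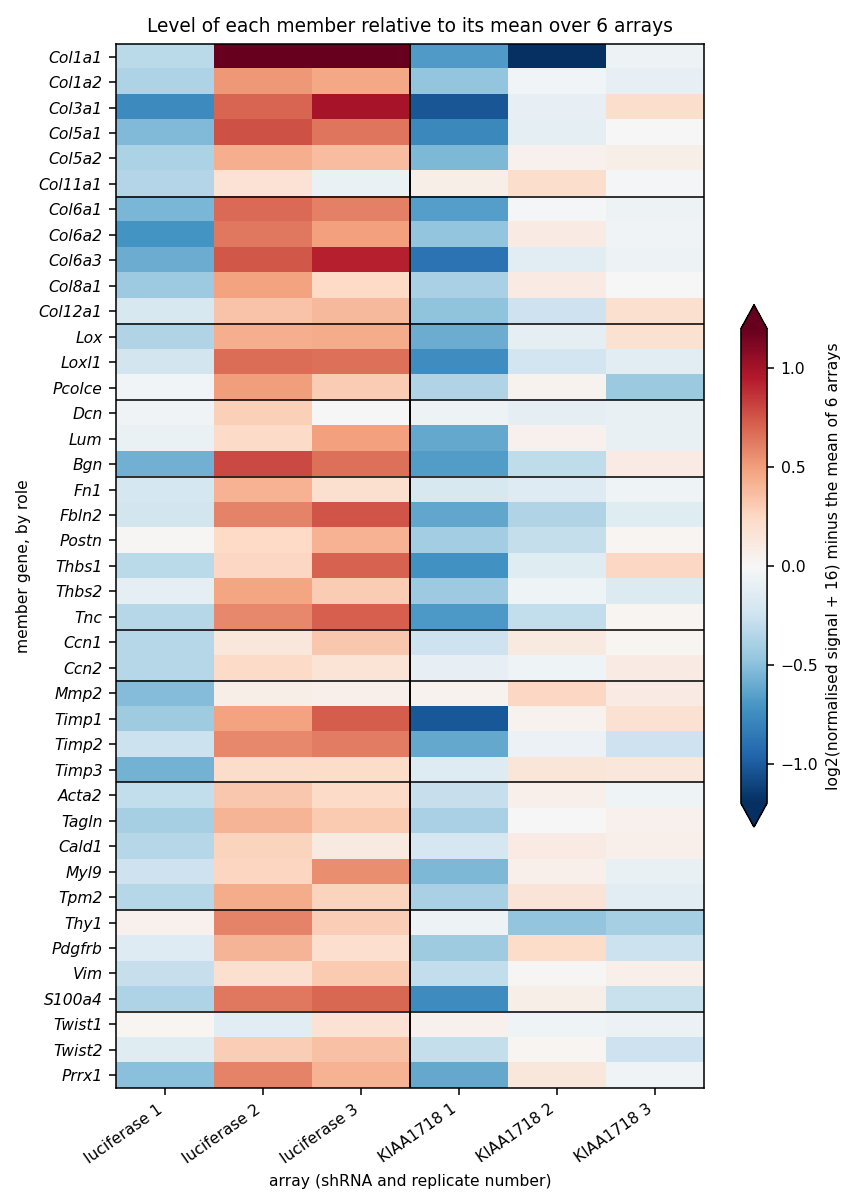
Colour gives log2(normalised signal + 16) of each of 41 members (rows, grouped by role) minus its mean over the 6 arrays (columns); colours saturate at the ends of the scale. Array 1 of both groups is blue in most rows, luciferase arrays 2 and 3 are red, and KIAA1718 arrays 2 and 3 lie between.

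A limma F-test of the replicate number, fitted beside the group and added after the data were seen, passed for 11 of 41 members (26.8%). It passed for 0.314% of all genes, which is 40 genes, and members made up 27.5% of the genes with this term. The members were chosen with earlier results of these data known, so these shares describe the list and do not test it. Timp1, which encodes an inhibitor of metalloproteases, had the smallest p of all genes, with 521, 990.1 and 1177 with luciferase and 341, 723 and 804 with KIAA1718 shRNA (adjusted p of the number = 0.00276). Array 1 was the lowest of the 3 in either group, and the steps to arrays 2 and 3 were 0.90 and 1.15 (log2) among luciferase arrays and 1.05 and 1.20 among KIAA1718 arrays. Thbs1, the gene of the matricellular thrombospondin 1, read 397, 601 and 829 with luciferase and 297, 452 and 598 with KIAA1718 shRNA (adjusted p = 0.00792), the same order of the 3 numbers in both groups. Col3a1, the chain of collagen III, read 106, 321 and 396 with luciferase and 86.0, 178 and 224 with KIAA1718 shRNA (adjusted p = 0.00792). The remaining 8 were Col5a2, Lox, S100a4, Tnc, Col5a1, Col6a3, Tagln and Vim, with adjusted p from 0.0194 to 0.0413, and in all 11 array 1 was the lowest in both groups. Of these 11, only Lox also passed on another tested probe set (adjusted p = 0.0137). Other tested probe sets of Col3a1, Thbs1, Col5a2, Tnc, Col5a1 and Vim did not pass (adjusted p from 0.051 to 0.573). Timp1, S100a4, Col6a3 and Tagln had no other probe set. The count of members with the term was 25 with unscaled signals, where 157 of all genes passed. It was 0 with no filter on low signal, where no gene of any kind passed. Without 1 array it ran from 3 to 29, and the count over all genes from 14 to 244. It was 3 without luciferase array 1 (14 over all genes), 25 without luciferase array 2 (236) and 29 without KIAA1718 array 2 (244).

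Members differed in how much of their variation went with the number. Cald1, the gene of the actin-binding caldesmon, had the largest share at 90.0%, with 1049, 1607 and 1437 with luciferase and 1159.7, 1429 and 1391 with KIAA1718 shRNA. This share rests on its brightest probe set. The next probe sets read 629, 445 and 669 and 246, 198 and 230 with KIAA1718 shRNA, where array 1 was not the lowest. The F-test of the number passed on no tested Cald1 probe set (adjusted p from 0.112 to 0.604). Ccn1, Vim, Col8a1, Col5a2, Prrx1, Timp3 and Tagln had shares from 80.3% to 84.6%. At the other end stood Thy1, which encodes a surface glycoprotein of fibroblasts and neurons, at 1.64%, with Col1a1 at 19.8% and the proteoglycan gene Dcn at 24.1%. By role, the medians ran from 41.1% for the 3 transcription factors to 78.8% for the 5 contractile genes, all of which had array 1 lowest in both groups. The step itself differed in size between roles: among luciferase arrays, array 2 exceeded array 1 by a median of 1.09 in fibrillar collagens and 1.23 in other collagens, against 0.62 in contractile genes; this difference between roles was not tested.

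**Figure D2:**
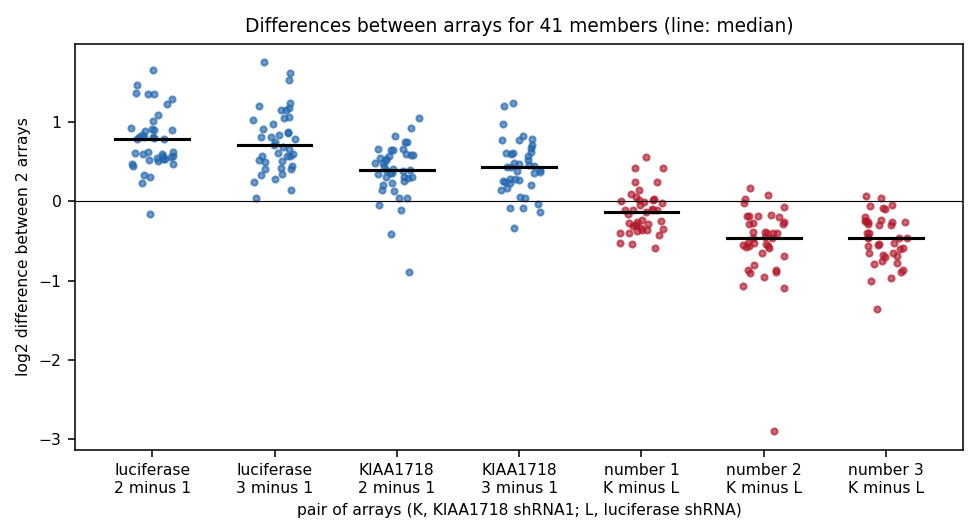
Each point is a member's log2 difference between 2 arrays and the line is the median of 41 members. Arrays 2 and 3 exceed array 1 in both groups, and KIAA1718 minus luciferase has a median of -0.13 for number 1 and -0.46 for numbers 2 and 3.

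The median steps between numbers were smaller among KIAA1718 arrays than among luciferase arrays, which was not tested, since each number has 1 array a group. KIAA1718 minus luciferase had a median over members of -0.13 for number 1, -0.46 for number 2 and -0.46 for number 3, while the medians of all genes were between -0.01 and 0.01. In 29 of 41 members (70.7%) the KIAA1718 array was lower for all 3 numbers, against 22.7% of all genes; in 2, Col11a1 and Mmp2, it was higher for all 3, against 23.6%. The 3 luciferase arrays lay wholly above the 3 KIAA1718 arrays only for Dcn and Thy1, 2 of 41, against 13.4% of all genes.

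In the comparison of the hairpins no member passed the threshold in either direction, against 4.87% of all genes (2.19% lower and 2.68% higher). Of the genes called, 55.0% were higher, a share of 81.2% with unscaled signals and 42.7% with arrays scaled to one median. Of the 41, 38 had differences below 0 and the median was -0.36, against 0.00 for all genes; 11 were lower at an unadjusted p under 0.05 (26.8%, against 10.7% of all genes) and none was higher (against 11.3%). With replicate number as a block, 17 members were lower (41.5%) and none was higher, against 7.85% of all genes (3.78% lower and 4.07% higher). Over all probe sets kept, deviations of equal-numbered arrays correlated at 0.124 to 0.202, which is the ground for treating the numbers as pairs, though no label says what a number marks. Over the 41 members alone the correlations were 0.586 for number 1, -0.08 for number 2 and 0.778 for number 3, against -0.70 to 0.306 for unequal numbers, so number 2 did not pair among the members. Without luciferase array 1, 14 members were lower in the fit that ignores the number, where 266 of all genes were lower and 258 higher. Without any other array 0 or 1 member was lower, where 68 to 190 of all genes were lower and 93 to 207 higher. The median was -0.60 without luciferase array 1 and -0.20 without KIAA1718 array 1. All 17 members lower with the block stayed below 0 whichever array was left out, but the size of 10 of them moved by over 1.5 times: Col1a2, Col3a1, Col5a1, Col6a3, Lox, Bgn, Thbs1, Tnc, Timp1 and S100a4. Each of the 10 moved so without luciferase array 1, 8 without KIAA1718 array 1, 5 without luciferase array 3, 4 without luciferase array 2 and 2 without KIAA1718 array 3.

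**Figure D3:**
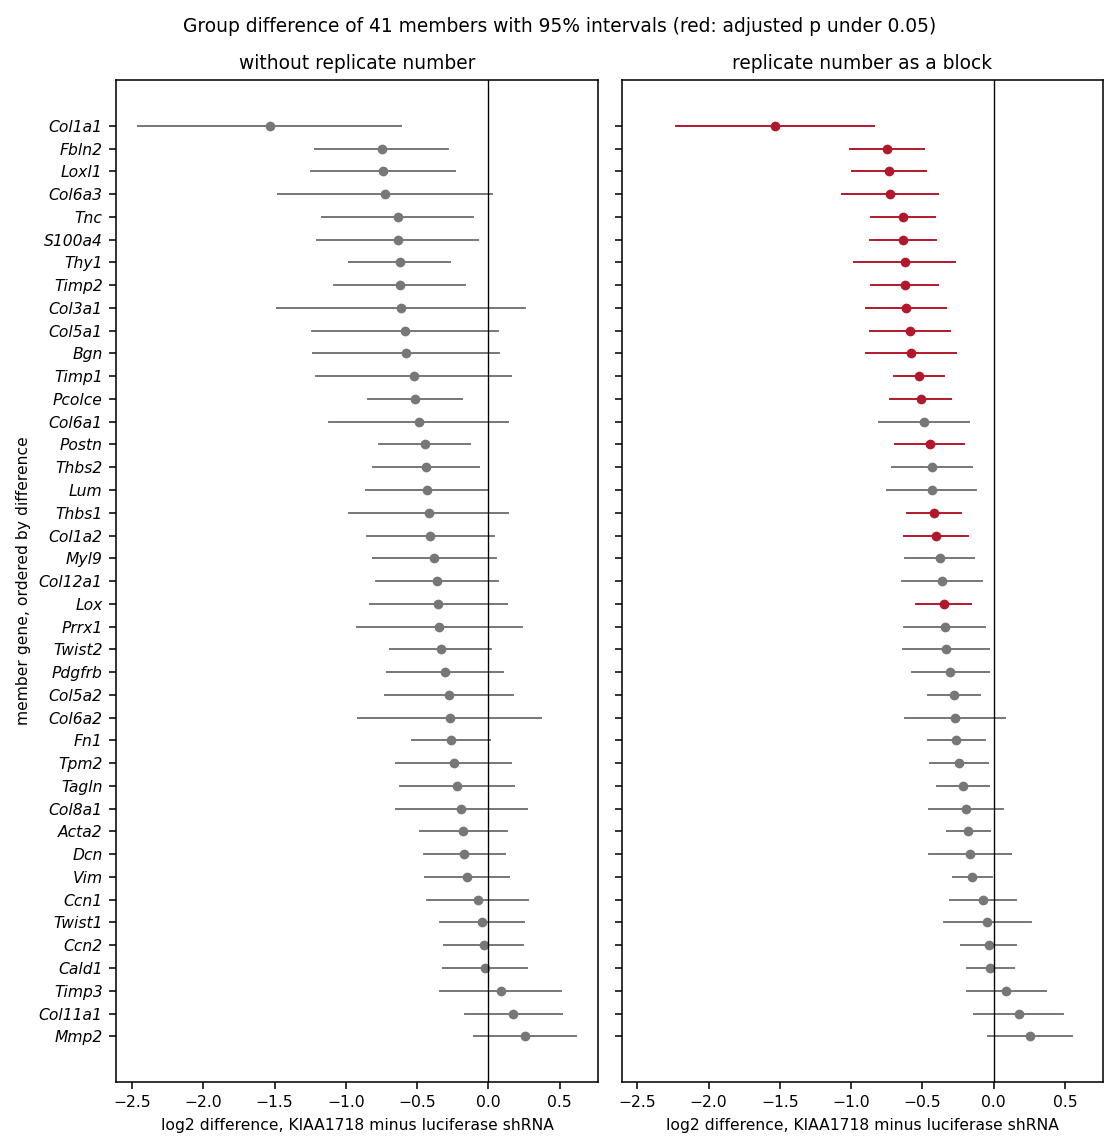
Points are log2 differences (KIAA1718 minus luciferase shRNA) of the 41 members with 95% intervals, on the left from the fit without replicate number and on the right with it as a block; red marks an adjusted p under 0.05. No member is red on the left and 17 are red on the right, with unchanged differences and narrower intervals.

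Among fibrillar collagens 5 of 6 lay below 0, none passed without the number, and 4 were lower with it. Col1a1, the main chain of collagen I (Entrez gene 12842, chromosome 11), read 139.9, 475 and 461 with luciferase and 106, 50.0 and 171 with KIAA1718 shRNA, 359 ± 189 against 109 ± 60.4 (SD, n = 3). Its difference was -1.53 ± 0.42 (SE), the largest of any member (adjusted p = 0.0711, and 0.0178 with the block). KIAA1718 array 2 was the lowest of all 6 and luciferase array 1 lay inside the range of the KIAA1718 arrays. The difference was -1.14 without KIAA1718 array 2 and -2.08 without luciferase array 1. Its other tested probe set did not share this: it read 38.6, 67.3 and 59.1 against 30.7, 50.9 and 45.1, a difference of -0.28 (adjusted p = 0.455, and 0.217 with the block), so the size for Col1a1 rests on 1 probe set and the low value of KIAA1718 array 2 on that probe set alone. Col1a2, the partner chain of collagen I, whose promoter is printed above, read 431, 815 and 781 with luciferase and 400.4, 549 and 525 with KIAA1718 shRNA. The difference was -0.41 ± 0.20 (adjusted p = 0.31, and 0.0397 with the block). Luciferase arrays 2 and 3 were the 2 highest and the 2 arrays numbered 1 the 2 lowest.

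Col3a1, given above, differed by -0.61 with an interval of -1.49 to 0.26, which narrowed to -0.89 to -0.34 with the block (adjusted p = 0.0176). It was -1.15 without luciferase array 1 and -0.26 without KIAA1718 array 1. A dimmer Col3a1 probe set differed by -0.34 and did not pass (adjusted p = 0.16 with the block). Col5a1, a chain of the collagen V that nucleates collagen I fibrils, read 128, 337 and 309 with luciferase and 106, 177 and 192 with KIAA1718 shRNA. Between the hairpins it differed by -0.59 (adjusted p = 0.319, and 0.0229 with the block). Its second probe set read 59.9, 161 and 155 against 81.1, 127 and 131 and differed by only -0.06 (adjusted p = 0.857 with the block), and another, dimmer one by -0.41 (adjusted p = 0.162 with the block). Its partner Col5a2 read 549.9, 977 and 934 with luciferase and 492, 746 and 757 with KIAA1718 shRNA. Its values differed by -0.28 (adjusted p = 0.518, and 0.0692 with the block). Col11a1, a cartilage-type fibrillar collagen, was dim at 5.78, 15.4 and 10.4 with luciferase and 13.2, 16.2 and 11.6 with KIAA1718 shRNA, and its difference of 0.17 did not pass.

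All 5 other collagens lay below 0, and 1 was lower with the block. Col6a3, a chain of the beaded-filament collagen VI, read 23.4, 84.3 and 98.2 with luciferase and 16.2, 38.1 and 41.2 with KIAA1718 shRNA. Its log2 difference was -0.73 (adjusted p = 0.283, and 0.0189 with the block). The sister chain Col6a1 read 32.3, 97.0 and 91.5 with luciferase and 28.6, 54.1 and 51.6 with KIAA1718 shRNA (difference -0.49, adjusted p = 0.0677 with the block). In both chains the arrays numbered 1 were the 2 lowest and luciferase arrays 2 and 3 the 2 highest. Col12a1, a fibril-associated collagen, read 64.9, 101 and 105 with luciferase and 50.0, 61.7 and 89.5 with KIAA1718 shRNA. Its values differed by -0.36 (adjusted p = 0.354, and 0.126 with the block). The third chain Col6a2 and the short-chain collagen gene Col8a1 differed by -0.27 and -0.19, and in both the number 1 arrays ran the other way, by 0.24 and 0.05. Without luciferase array 2 the difference of Col8a1 was 0.00. A dimmer probe set of Col8a1, at 44.2, 66.0 and 69.3 against 27.0, 44.9 and 39.6, differed by -0.51 and was lower with the block (adjusted p = 0.0349).

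All 3 measured genes of collagen maturation were lower with the block. Loxl1, a lysyl oxidase best known from elastic fibres, read 124, 245 and 242 with luciferase and 81.6, 124 and 134 with KIAA1718 shRNA. It differed by -0.74 ± 0.23 (adjusted p = 0.106, and 0.00467 with the block). Luciferase array 1 was level with KIAA1718 array 2 and below array 3. Pcolce, which encodes an enhancer of procollagen C-proteinase, read 525, 766 and 667 with luciferase and 414, 553 and 389.9 with KIAA1718 shRNA. The difference was -0.51 (adjusted p = 0.0853, and 0.012 with the block), and its second probe set passed without the block at -0.74. Lox, the founding lysyl oxidase, read 561, 987 and 994 with luciferase and 474, 667 and 825 with KIAA1718 shRNA. Its values differed by -0.35 (adjusted p = 0.427, and 0.0377 with the block). Its 2 arrays numbered 1 were the lowest of their groups.

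The 3 small leucine-rich proteoglycans, which bind collagen fibrils, all lay below 0. Bgn (biglycan) read 358, 948 and 863 with luciferase and 335, 435 and 582 with KIAA1718 shRNA. Between the hairpins it differed by -0.58 (adjusted p = 0.324, and 0.0375 with the block); its other 2 probe sets differed by -0.74 each and were also lower with the block. Lum (lumican) read 12.0, 18.8 and 25.7 with luciferase and 3.37, 14.7 and 11.8 with KIAA1718 shRNA. Dcn (decorin) read 48.9, 65.4 and 50.7 with luciferase and 47.9, 46.0 and 46.5 with KIAA1718 shRNA. Dcn did not overlap between the groups, by a margin of under 1 unit of signal, and Lum was dim. Their differences of -0.43 and -0.17 did not pass with or without the block (adjusted p of 0.0985 or higher).

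All 6 measured matrix glycoproteins lay below 0 and 4 were lower with the block. Fbln2, the gene of the elastic-fibre and basement-membrane protein fibulin 2, read 285, 513 and 575 with luciferase and 212, 257 and 302 with KIAA1718 shRNA, 458 ± 152 against 257 ± 44.6 (SD, n = 3). The difference was -0.75 ± 0.21 (adjusted p = 0.0794, and 0.00425 with the block), and only KIAA1718 array 3 exceeded luciferase array 1. Tnc (tenascin C), a matrix protein of wounds and embryos, read 470.1, 901 and 995 with luciferase and 366, 486 and 610.5 with KIAA1718 shRNA. Its log2 difference was -0.64 (adjusted p = 0.179, and 0.00476 with the block). The other, dim Tnc probe set read 9.73, 53.3 and 33.3 against 5.46, 21.7 and 47.5. It differed by -0.26 (adjusted p = 0.492 with the block). Postn (periostin) read 153, 182 and 208 with luciferase and 109.8, 122 and 154 with KIAA1718 shRNA. It differed by -0.45 (adjusted p = 0.12, and 0.0352 with the block), and it was lower by a similar amount for each number, -0.42, -0.52 and -0.40. Thbs1 behaved likewise at -0.40, -0.40 and -0.46 (adjusted p = 0.413, and 0.017 with the block), and its mean of -0.42 was -0.69 without luciferase array 1 and -0.16 without KIAA1718 array 1. A dimmer Thbs1 probe set differed by -0.40 and did not pass (adjusted p = 0.0774 with the block). Thbs2, its close relative, read 32.2, 56.9 and 48.6 with luciferase and 22.8, 34.5 and 30.8 with KIAA1718 shRNA. Its values differed by -0.44 (adjusted p = 0.192, and 0.0678 with the block). Fn1 (fibronectin) read 1533, 2377 and 2043 with luciferase and 1558, 1601 and 1716 with KIAA1718 shRNA. Both arrays numbered 1 and KIAA1718 array 2 were close together, luciferase array 2 was the highest, and the difference of -0.26 did not pass (adjusted p = 0.281, and 0.115 with the block).

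**Figure D4:**
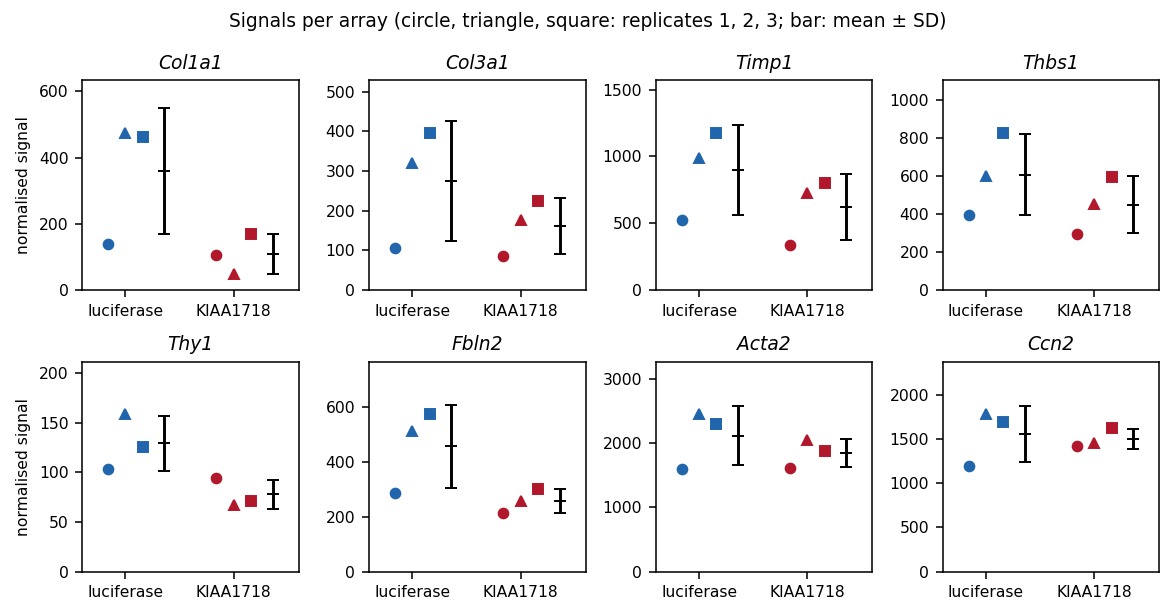
Points are normalised signals of 8 members on each array, with circles, triangles and squares for replicates 1, 2 and 3 and bars for the mean ± SD of 3 arrays; axes start at 0. Circles lie lowest in both groups for Col3a1, Timp1, Thbs1, Fbln2, Acta2 and Ccn2, but not among KIAA1718 arrays for Col1a1 and Thy1.

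Neither CCN gene differed detectably between the hairpins, and in both array 1 was the lowest of each group. Ccn2 read 1194, 1779.9 and 1695 with luciferase and 1414, 1457 and 1628 with KIAA1718 shRNA. The difference was -0.03 with an interval of -0.31 to 0.24, and -0.23 to 0.16 with the block. Ccn1 read 244, 346 and 397 with luciferase and 261, 339.6 and 320.0 with KIAA1718 shRNA. Between the hairpins it differed by -0.08 with an interval of -0.43 to 0.27. For number 1 the KIAA1718 array was the higher of the pair in both genes, by 0.24 and 0.09. Both differences lay above 0 in 4 of 13 alternative settings. Among these were unscaled signals, where the median of all genes was 0.11, and fits without 1 array, up to 0.07. The 4 tested probe sets of Ccn1 ran from -0.18 to 0.44. On those at 0.44 and 0.31, both dim, luciferase array 1 was the highest of its group.

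Of the 4 members of the metalloprotease system, 2 were lower with the block and 2 lay above 0. Timp1, given above, differed by -0.59, -0.44 and -0.54 for numbers 1, 2 and 3, a mean of -0.53 (adjusted p = 0.4, and 0.00358 with the block). The mean was -0.87 without luciferase array 1 and -0.15 without KIAA1718 array 1. Timp2, a second inhibitor gene, read 342, 620.3 and 636 with luciferase and 263, 389 and 343 with KIAA1718 shRNA. Its log2 difference was -0.62 (adjusted p = 0.129, and 0.00706 with the block); its 5 tested probe sets ran from -0.79 to -0.52, all 5 were lower with the block and 1 also without it. Timp3, whose protein binds to the matrix, read 106, 194 and 195 with luciferase and 147, 184 and 182 with KIAA1718 shRNA. It differed by 0.09 with an interval of -0.34 to 0.51. Mmp2, the gelatinase gene, read 53.7, 89.0 and 88.0 with luciferase and 86.8, 102 and 90.7 with KIAA1718 shRNA, where luciferase array 1 stood below the other 5, and its difference of 0.26 did not pass (adjusted p = 0.44, and 0.299 with the block). Whether Timp3 or Mmp2 differs from Timp1 and Timp2 was not tested.

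None of the 5 contractile genes passed, with or without the block. Acta2, the gene of smooth muscle actin, read 1593, 2454 and 2300.3 with luciferase and 1607, 2046 and 1885 with KIAA1718 shRNA, 2116 ± 459 against 1846 ± 222 (SD, n = 3), a difference of -0.18 with an interval of -0.33 to -0.03 under the block (adjusted p = 0.162). The 2 arrays numbered 1 were level and the lowest of the 6. Tagln (transgelin) showed the same layout at 881, 1556 and 1453 with luciferase and 886, 1173 and 1212 with KIAA1718 shRNA. The difference was -0.22 (adjusted p = 0.154 with the block). Myl9, a regulatory myosin light chain gene, was the member with a strict CArG match in its printed promoter. It read 272, 393 and 487 with luciferase and 219, 340.2 and 306 with KIAA1718 shRNA. Between the hairpins it differed by -0.38 (adjusted p = 0.328, and 0.0637 with the block). In Myl9 the arrays numbered 1 were again the lowest of their groups. Tpm2 (beta-tropomyosin) read 466, 818 and 718 with luciferase and 452, 666 and 539 with KIAA1718 shRNA. It differed by -0.24 (adjusted p = 0.528, and 0.147 with the block), and 2 of its 4 probe sets were lower under the block. Cald1 differed by -0.02 and lay above 0 in 4 of 13 alternative settings, with unscaled signals among them and up to 0.10 without 1 array.

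Among the surface, filament and calcium-binding markers all 4 lay below 0. Thy1 read 104, 159 and 126 with luciferase and 94.8, 67.6 and 71.6 with KIAA1718 shRNA, 129 ± 27.7 against 78.0 ± 14.7 (SD, n = 3), and its groups did not overlap. Its difference of -0.62 ± 0.16 had the smallest p of the members (adjusted p = 0.0572, and 0.043 with the block), and without KIAA1718 array 1 or luciferase array 1 it passed. S100a4, a calcium-binding protein gene of motile mesenchymal cells, read 473, 968 and 1005 with luciferase and 359.7, 647 and 509 with KIAA1718 shRNA. Its log2 difference was -0.64 (adjusted p = 0.209, and 0.00603 with the block). The receptor gene Pdgfrb, for platelet-derived growth factor, read 61.5, 98.2 and 82.8 with luciferase and 48.2, 84.1 and 56.1 with KIAA1718 shRNA. The intermediate filament gene Vim read 1904, 2649.6 and 2885 with luciferase and 1886, 2335 and 2411 with KIAA1718 shRNA. In both, array 1 was the lowest of each group. Their differences were -0.31 and -0.15, and neither passed (adjusted p of 0.178 and 0.183 with the block).

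The 3 transcription factor genes of mesenchyme did not pass in either fit. Prrx1, a homeobox gene of limb and craniofacial mesenchyme, read 46.5, 117 and 102 with luciferase and 41.8, 80.9 and 69.7 with KIAA1718 shRNA, with array 1 lowest in both groups and a difference of -0.35 (adjusted p = 0.142 with the block). Twist2, a basic helix-loop-helix factor gene, read 26.8, 42.5 and 44.6 with luciferase and 23.0, 32.3 and 24.1 with KIAA1718 shRNA. Its values differed by -0.34 (adjusted p = 0.184 with the block). Twist1 was dim, between 12.8 and 19.4 on all arrays, with a difference of -0.04. It lay above 0 in 2 of 13 alternative settings, with unscaled signals and, at 0.03, without 1 array.

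Different probe sets of a gene mostly lay on one side of 0. Of 24 members with at least 2 tested probe sets, 21 did so, the exceptions being Cald1, Ccn1 and Timp3, and in 18 the differences spanned at most 0.3 (log2). Over the 84 tested probe sets of members, 2 were lower without the block, 1 each of Pcolce and Timp2, and 29 with it; none was higher in either fit. The replicate-number term passed for 16 of the 84, among them dimmer probe sets of Bgn, Col1a2 and Tpm2, whose brightest did not pass. These counts are of probe sets and not of separate members, since Timp2 alone gave 5 of the 29. Shares over all probe sets kept were not counted. Over all genes, each by its brightest probe set, 2.19% were lower without the block, 3.78% with it, and 0.314% had the term. Col1a1 had the widest span of differences, at 1.26.

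In a list of 19 measured fibroblast genes outside the members, 2 were lower and 1 higher, against 2.19% and 2.68% of all genes. With the block 7 were lower and 1 higher, against 3.78% and 4.07%. At an unadjusted p under 0.05, 6 were lower and 3 higher, against 10.7% and 11.3% of all genes. The transcription factor gene Zeb1 fell by 0.63 (adjusted p = 0.021) and the receptor gene Pdgfra, also a primitive endoderm gene, by 0.71 from signals of 21.9, 23.8 and 20.2 to 11.1, 7.99 and 3.23 (adjusted p = 0.0266), while the cadherin gene Cdh2 rose by 0.73 (adjusted p = 0.0187). The replicate term passed for 6 of the 19 (31.6%, against 0.314% of all genes), but not for these 3. The 6 were Lgals1, S100a6, Cav1, Cdh11, Igfbp7 and Snai2, and in each array 1 was the lowest in both groups. Lgals1, the galectin 1 gene, was bright at 1746, 2852 and 2677 with luciferase and 1705, 2333 and 1963 with KIAA1718 shRNA. S100a6, a calcium-binding protein gene, read 1156, 1624 and 1874 with luciferase and 1016, 1502 and 1333 with KIAA1718 shRNA. Cdh11, a mesenchymal cadherin gene, read 207, 426 and 491 with luciferase and 191, 238 and 343 with KIAA1718 shRNA. None of these 3 passed between the hairpins without the block, and with it Cdh11 was lower at -0.47 (adjusted p = 0.0497). Igfbp7, a secreted insulin-like growth factor binding protein gene, read 248, 460.4 and 429 with luciferase and 159, 246 and 265 with KIAA1718 shRNA and was lower with the block at -0.70 (adjusted p = 0.107, and 0.00271 with the block). The list's median was -0.28. At the dim end of the list, Fap, a membrane protease gene, read 5.52, 13.6 and 8.06 with luciferase and 12.2, 6.72 and 5.63 with KIAA1718 shRNA. Dpt, a matrix protein gene of skin fibroblasts, read 9.89, 17.9 and 17.1 with luciferase and 7.01, 10.1 and 11.0 with KIAA1718 shRNA.

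Among 22 other matrix genes, 1 was higher and none lower; with the block 2 were lower and 1 higher. The higher one was Hapln1, a link protein gene, from 0.712, 3.67 and 5.67 to 13.2, 10.5 and 14.9, all dim signals (adjusted p = 0.049). The median was -0.26, and 11 of 22 had array 1 lowest in both groups. None of 15 other genes of collagen maturation passed in either fit (2 were lower at an unadjusted p under 0.05), and P4ha3 at -0.45 and Crtap at -0.28 were nearest (adjusted p = 0.119 and 0.164).

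None of 22 other contractile genes and targets of serum response factor passed (4 lower and 2 higher at an unadjusted p under 0.05), with a median of 0.06. Nearest were the smooth muscle actin gene Actg2 at -0.64 (adjusted p = 0.0575, and 0.0122 with the block) and the tropomyosin gene Tpm4 at 0.35 (adjusted p = 0.089, and 0.0421 with the block), which lay on opposite sides of 0. With the block 2 of the 22 were lower and 1 was higher. None of 18 genes of the TGF-beta and YAP pathways passed (3 lower and none higher at an unadjusted p under 0.05); the TEAD gene Tead2 differed by -0.39 and the receptor tyrosine kinase gene Axl by -0.59 (adjusted p = 0.151 and 0.187, the latter 0.0262 with the block).

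Markers of other cell types were read beside the members. The signals of the 41 members summed to 15494 to 26137 on luciferase arrays and 14699 to 19557 on KIAA1718 arrays, and those of the 13 stem cell markers to 15962 to 16171 and 14461 to 15289. Of the latter, 2 were lower, Esrrb at -1.16 and Utf1 at -0.44 (adjusted p = 0.004 and 0.0243). None of the 13 had array 1 lowest in both groups, against 11.8% of all genes. The sums of 12 primitive endoderm markers were 1005 to 1103 and 776 to 821. Of these, 4 were lower, with Sox7 at -0.85, Lamc1 at -0.84 and Dab2 at -0.59 having the smallest p (adjusted p = 0.00828, 0.0119 and 0.0343). The replicate term passed for none of the 12, against 0.314% of all genes, a share at which so short a list would seldom hold any. Sums for 7 endothelial markers were 103 to 135 and 172 to 199, with Tek higher by 0.77, and for 5 striated muscle markers 69.0 to 81.3 and 127 to 170.5, with Actc1 higher by 1.08 (adjusted p = 0.0096 and 0.00427). For 4 blood markers they were 90.4 to 127 and 83.3 to 106, where none passed (none at an unadjusted p under 0.05 either) and Csf1r and Lyz2 were nearest, at -0.29 and -0.23. With the block 3 stem cell and 4 primitive endoderm markers were lower, 2 endothelial and 2 muscle markers were higher, and no blood marker passed. No marker in these lists was listed at 0 on any array. The part of these markers in the members' differences was not tested.

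**Figure D5:**
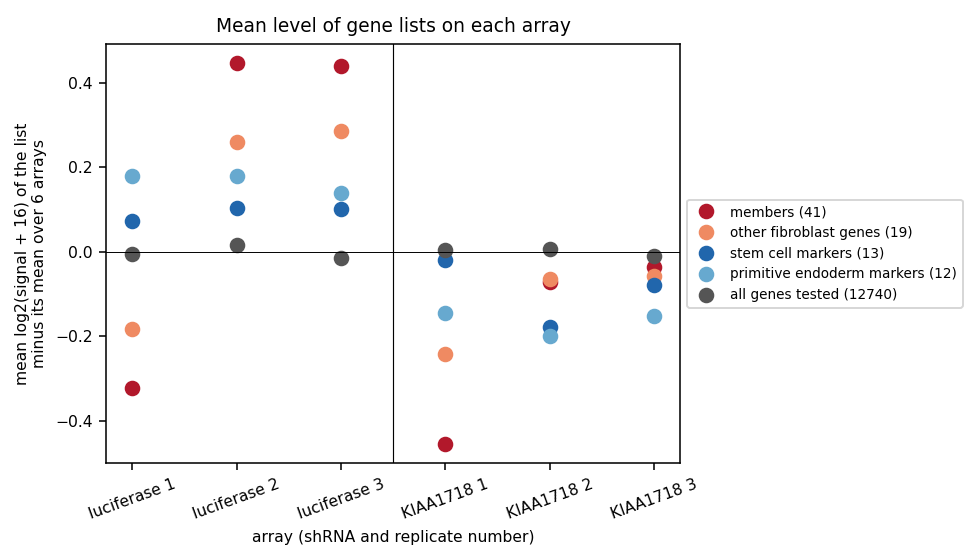
Points are the mean log2(normalised signal + 16) of a gene list on each array minus that list's mean over the 6 arrays, with the number of genes in parentheses. On array 1 the members and the other fibroblast genes lie below arrays 2 and 3 of the same group; the uncentred mean of the 13 stem cell markers, of which 2 passed, is 10.02 to 10.05 with luciferase and 9.77 to 9.93 with KIAA1718 shRNA, and that of the 12 primitive endoderm markers, of which 4 passed, 5.91 to 5.95 and 5.57 to 5.63.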

How the data were processed

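RNA was measured on 6 Affymetrix Mouse Genome 430 2.0 arrays. The authors deposited a linear signal intensity for each of 45101 probe sets. GCOS is the software named, per the submitters' processing notes; no source used here gives its version or how arrays were scaled. Quantile normalization between arrays was applied, 16 was added and log2 taken. The 64 control probe sets and the 40% with the lowest mean were left out, which kept 27022. Groups were compared with limma 3.58.1 in R 4.3.3 (lmFit, eBayes with an intensity trend). Symbols of the array's annotation were updated by Entrez number through RefSeq of GRCm38.p6: of 45037 probe sets 34945 had 1 symbol, 932 several and 9160 none.

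Deviations of equal-numbered arrays from their group means correlated at 0.202, 0.124 and 0.129 over the 27022 probe sets (0.191, 0.123 and 0.123 without the members; the report gives them over the members), against -0.150 to 0.0246 for unequal numbers. Each exceeded 0.1, so fits with replicate number as a block are given beside those without it. No 2 arrays held identical values. The fits were tested on simulated data.

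The members and lists were chosen with earlier results of these data known, so counts are read against the share of all genes and no list is tested. Members named with every array's value are those passing in either fit and up to 2 more per role with the smallest p; of other lists, up to 3 passing genes, or the 2 with the smallest p. The array values of Acta2, Tagln, Cald1, Lgals1, S100a6, Cdh11, Igfbp7, Fap and Dpt and the order of genes by replicate share were added after the values were seen. The number of arrays limits the precision.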

Additional observations from a re-analysis of the deposited data

How the results depend on the processing

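Of the 41 members none passed in the main setting. Among 13 alternatives, 1 was lower with unscaled signals (Col1a1), 3 with arrays scaled to one median (Col1a1, Fbln2 and Thy1), 2 with the mean of all probe sets of a gene (Pcolce and Thy1) and 17 with the replicate block; leaving out 1 array gave 0 to 14. None was higher in any. The members' median of -0.36 ran from -0.60 to -0.20 without 1 array and was -0.23 with unscaled signals (all genes: 0.11). The replicate-number term passed for 11 members, for 25 with unscaled signals and 0 with no filter on low signal. It passed for 6 with the mean of probe sets and 3 to 29 without 1 array. In the same order it passed for 40, 157, 0, 22 and 14 to 244 of all genes. Over all genes 620 changed (55% higher), against 367 with unscaled signals (81.2% higher), 581 scaled to one median (42.7% higher), 197 with no filter, 944 with the mean of probe sets, 1000 with the replicate block and 161 to 524 without 1 array. Of the members, 33 lay below 0 in all 13 alternatives. Small numbers of arrays limit what can be called.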

Other observations

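Outside the members, 29 genes had a replicate-number term past the threshold, and in 21 of them array 1 was the lowest in both groups. Those named here were chosen after their values were seen. Serpinb2, which encodes a plasminogen activator inhibitor, read 43.6, 137 and 177 with luciferase and 29.7, 142 and 94.0 with KIAA1718 shRNA. Mgp, the gene of matrix Gla protein, an inhibitor of calcification, read 30.4, 97.6 and 108 with luciferase and 19.3, 57.0 and 48.1 with KIAA1718 shRNA. The caveolae gene Cav1 read 456, 804 and 845 with luciferase and 389, 631 and 633 with KIAA1718 shRNA, and Snai2, a transcription factor gene of mesenchymal transition, 78.6, 212 and 161 with luciferase and 54.5, 168 and 88.0 with KIAA1718 shRNA. In each of these genes both arrays numbered 1 lay below the other arrays of their group.

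In 4 genes array 1 was instead the highest in both groups. The immediate-early gene Fos read 335, 114 and 117 with luciferase and 252, 120.0 and 102 with KIAA1718 shRNA, and H3f3b, a gene of histone H3.3, 81.7, 37.3 and 34.1 with luciferase and 117, 62.8 and 61.9 with KIAA1718 shRNA. The noncoding gene Snhg7 read 153, 73.6 and 85.0 with luciferase and 164, 63.6 and 54.2 with KIAA1718 shRNA. In these 3 genes arrays 2 and 3 lay close together, whereas in Nipbl, the cohesin loader gene, array 2 alone stood low in both groups, at 223, 98.3 and 201 with luciferase and 209, 91.4 and 184 with KIAA1718 shRNA.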
